A study of Homo sapiens with 24 samples.

Results

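The comparison described here set SKBR7 cells treated with lapatinib against SKBR7 cells treated with DMSO, gene by gene. Its members were the genes with a value in all 6 libraries of the pair of groups, and 15981 of the 36481 genes in the deposited table met that rule. The 6 libraries, 3 of lapatinib and 3 of DMSO, came from a series of 24 that covered 2 triple-negative breast cancer lines, SKBR7 and Hs578T, and 4 treatments in each. Lapatinib was given at 3.16 µM for 6 h and the control was 0.1% DMSO for 6 h, both in cells that had been seeded the day before and grown as monolayers in medium with serum. The other SKBR7 groups received PHA-767491, an inhibitor of the kinases CDC7 and CDK9, at 1 µM for 6 h, alone or together with 3.16 µM lapatinib (co-treatment).

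Lapatinib is a reversible inhibitor of the kinase domains of EGFR and ERBB2, receptor tyrosine kinases of one family. Ligands such as transforming growth factor alpha and epiregulin bring EGFR molecules into pairs, the paired kinases phosphorylate each other, and adaptor proteins then switch on the RAS-ERK and PI3K-AKT cascades. Active ERK induces transcription factors of the immediate early class and its own antagonists of the sprouty and dual-specificity phosphatase families, whose mRNAs are common readouts of the pathway, while AKT keeps FOXO transcription factors out of the nucleus.

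The RNA-seq values were log2 expression values, 1 per gene and library, that the authors had quantile normalised. Over which genes this was done is not stated. Libraries listed unequal numbers of genes, and the median deposited value of the genes listed in all 6 was 3.88, 3.26 and 4.41 in lapatinib I, II and III, against 4.30, 4.33 and 4.38 in DMSO I, II and III. The 15981 shared genes were therefore put on 1 common distribution again, and the lapatinib and DMSO log2 values below are on that scale unless called deposited. Values of co-treatment and PHA-767491 libraries, and differences that use them, are on another scale. It was made in the same way from all 12 SKBR7 libraries over 14170 genes. Read totals were not used here and the depth of the libraries is unknown from these values. The labels number the libraries of each group I to III without saying whether they came from separate cultures, and the treatment was done in triplicate wells, so a p-value here reflects the spread of these libraries alone, and that spread may be technical.

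SKBR7 is a breast cancer line labelled triple-negative, which means that it should lack the hormone receptors. The keratins KRT8, KRT18 and KRT7 were listed in all 6 libraries, at deposited values no lower than 10.76, 10.48 and 10.15. The oestrogen receptor gene ESR1 was listed in 3 libraries, never above -1.02, and the progesterone receptor gene PGR in 1 library at -2.28. The epithelial adhesion gene EPCAM, a frequent marker of breast epithelium, stayed between -3.58 and -0.11 and KRT19 was listed in only 3 libraries, while the mesenchymal filament gene VIM lay between 8.66 and 9.53. ERBB2 and EGFR, the targets of the inhibitor, were both measured in all 6 libraries.

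The libraries of the lapatinib group were not alike. Lapatinib II listed 18021 genes, against 20287 in lapatinib I, 23282 in lapatinib III and 22587 to 23103 in the DMSO libraries. Its mean correlation with the other 5 libraries across genes was 0.931, against 0.967 to 0.977 for the rest. The SD of log2 values around the group mean was 0.51, 0.72 and 0.41 in lapatinib I, II and III and 0.24 to 0.27 in the DMSO libraries. The deviation of each library was taken from the mean of the DMSO libraries, itself left out. This deviation followed the GC content of the mRNAs (GENCODE 44 transcripts, 99.3% of tested genes matched). Spearman's rho was -0.46, 0.45 and 0.19 in lapatinib I, II and III and 0.17, -0.37 and 0.22 in DMSO I, II and III. Among the DMSO libraries such deviations sum to 0, so that part of the opposite sign of DMSO II is built in.

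Transcripts of the series' other line were also uneven. The alpha-2 chain of type I collagen, COL1A2, had log2 values of 0.04, 8.36 and 1.06 in lapatinib I, II and III, against -2.04, 4.81 and -0.84 in DMSO I, II and III. COL6A3, a chain of type VI collagen, had values of -1.57, 7.68 and 1.02 in lapatinib I, II and III, against -1.31, 4.25 and -1.08 in DMSO I, II and III. Both genes were highest in lapatinib II and next highest in DMSO II among the 6 libraries. COL1A2 also had 4.27 in PHA-767491 I, on the scale of all 12 SKBR7 libraries. A set of 82 tested genes was then taken by deposited values. Their lowest value in the Hs578T lapatinib and co-treatment libraries lay at least 5 log2 units above their highest value in the SKBR7 PHA-767491 libraries. The set was chosen after these values were seen. Its median log2 value was -0.54, 1.53 and -0.62 in lapatinib I, II and III, against -0.66, 0.51 and -0.96 in DMSO I, II and III, and 68 of the 82 genes were higher in lapatinib II than in any other of the 6 libraries. How many of all tested genes were highest in lapatinib II, the library with the widest spread, was not counted. The 68 is therefore not to be read as particular to this set. The list of 25 mesenchymal markers, of which 23 were tested, summed to 2300, 5090 and 2360 on the linear scale in lapatinib I, II and III, against 2300 to 2500 in the DMSO libraries. The 12 tested of 17 epithelial markers summed to 4550, 8750 and 5540 in lapatinib I, II and III, against 5520 to 5700 in the DMSO libraries, so that both lists were highest in lapatinib II. The 2 tested blood cell markers, CD14 and ITGAM, summed to 2.63 at most in the lapatinib libraries and to 4.07 at most in the DMSO libraries, and the defining marker PTPRC was listed in 2 libraries, never above -2.28. The endothelial marker PECAM1 was listed in 0 libraries. Whether RNA of the other line, or the base composition, had a part in the differences below was not tested, and most differences are therefore also given without lapatinib II.

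**Figure D1:**
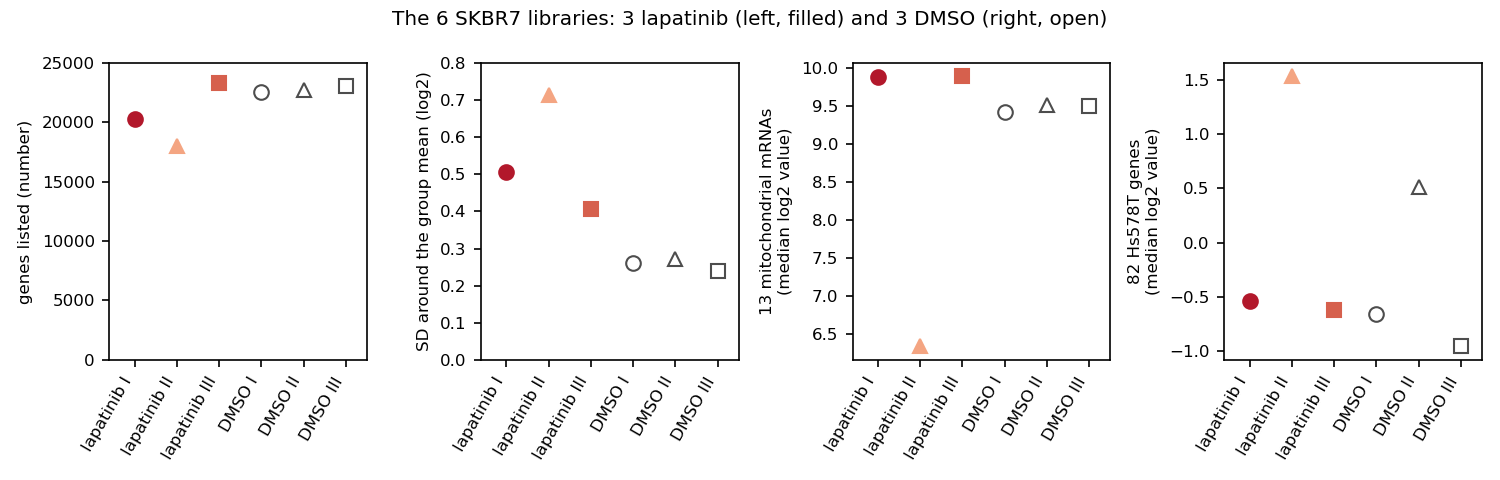
Genes listed, spread of log2 values around the group mean, median of the 13 mitochondrially encoded mRNAs and median of the 82 genes high in Hs578T, for each of the 3 lapatinib libraries (filled, left) and the 3 DMSO libraries (open, right). Lapatinib II lists 18021 genes, has an SD of 0.72, a mitochondrial median of 6.34 and a median of 1.53 for the Hs578T genes, and lies outside the range of the other 5 libraries in all 4 panels.

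No gene passed the test at an adjusted p of 0.05 in either direction. In limma's moderated test over the 15981 genes, 0 genes (0%) were called, the lowest Benjamini-Hochberg adjusted p was 0.957, and 199 genes (1.25%) had an unadjusted p under 0.05. Without lapatinib II, 0 genes were called as well, the lowest adjusted p was 0.219 and 633 genes (3.96%) had an unadjusted p under 0.05. The precision set a limit to both counts. The median half-width of the 95% confidence interval of a gene's difference was 0.60 log2 units with 6 libraries and 0.32 without lapatinib II. Smaller differences were not detectable in the typical gene, and no gene is described below as changed by lapatinib alone. In place of calls, the order of the libraries was recorded: 552 genes (3.45%) had all 3 lapatinib values above all 3 DMSO values and 619 genes (3.87%) had all 3 below. Without lapatinib II, the 2 remaining lapatinib values lay above all 3 DMSO values in 1458 genes (9.12%) and below in 1400 genes (8.76%). The median difference over all genes was -0.02, and 0.01 without lapatinib II. As these are bulk samples, a smaller share of cells carrying a transcript and less of it per cell cannot be told apart.

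The receptors and ligands of the ERBB family come first, as lapatinib acts on them. EGFR had log2 values of 8.51, 8.22 and 8.67 in lapatinib I, II and III, against 8.61, 8.85 and 8.81 in DMSO I, II and III. The groups overlapped, since lapatinib III lay above DMSO I. The difference was -0.30 ± 0.15 (SE, n = 3 each; 95% confidence interval -0.65 to 0.06), -0.17 ± 0.09 without lapatinib II, and 0.07 when the deposited values were only centred on the median of each library, so its sign depended on the scaling. ERBB2 had values of 6.26, 7.19 and 6.43 in lapatinib I, II and III, against 6.45, 6.23 and 6.41 in DMSO I, II and III. Lapatinib II alone stood apart for ERBB2, and the difference was 0.26 ± 0.25 with 6 libraries and -0.02 ± 0.10 without it. ERBB3, a partner that signals through PI3K and has almost no kinase activity of its own, was low at 2.21 to 2.42 in the lapatinib libraries and 2.05 to 2.17 in the DMSO libraries, higher in all 3 lapatinib libraries on this scale (0.21 ± 0.20) but lower with the deposited values (-0.73) and with median centring (-0.25).

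Of the genes for ligands of EGFR, EPGN, TGFA and AREG lay below DMSO in all lapatinib libraries and EREG, HBEGF and EGF overlapped with DMSO. EPGN (epigen), one such ligand, had values of 3.82, 2.46 and 3.80 in lapatinib I, II and III, against 4.13, 4.16 and 4.08 in DMSO I, II and III, and its difference of -0.76 shrank to -0.28 without lapatinib II. TGFA, which encodes transforming growth factor alpha, had values of 4.54, 4.16 and 4.46 in lapatinib I, II and III, against 4.68, 4.55 and 4.70 in DMSO I, II and III. In both, every lapatinib value lay below every DMSO value. AREG (amphiregulin) had the same order at levels at or under 0.77. Without lapatinib II, EREG (epiregulin) differed by -0.26, EGF by -0.15 and HBEGF (heparin-binding EGF) by -0.02. Of the 12 tested members of the 15 genes in the family list, 0 passed the test, 3 lay below DMSO in all lapatinib libraries (25%, against 3.87% of all genes) and 1 above (8.33%, against 3.45%). Their median difference was -0.20, and -0.14 without lapatinib II, where 10 of the 12 were negative.

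Feedback targets of ERK lay on both sides of DMSO, and none passed the test. DUSP6, a cytoplasmic phosphatase that removes phosphate from ERK, had values of 4.10, 1.90 and 4.04 in lapatinib I, II and III, against 3.93, 4.13 and 4.08 in DMSO I, II and III. Only lapatinib II was low, and the difference of -0.70 ± 0.56 became 0.02 ± 0.12 without it (95% confidence interval -0.26 to 0.29). SPRY4, an inhibitor of receptor to RAS signalling, had values of 4.88, 4.64 and 4.93 in lapatinib I, II and III, against 5.05, 5.01 and 5.01 in DMSO I, II and III. All 3 lapatinib values of SPRY4 were below DMSO, by -0.21 ± 0.15. ETV5, an ETS transcription factor downstream of ERK, lay between 7.11 and 7.15 in the lapatinib libraries and between 7.17 and 7.18 in the DMSO libraries, a difference of -0.05 ± 0.11. With the deposited values the difference of ETV5 was -0.185, where all genes had a median of -0.43. The phosphatase gene DUSP4 differed by -0.12 ± 0.12 and ETV4 by 0.10 ± 0.13. Of 21 tested members of the 24 feedback genes, 0 passed, 2 lay below DMSO in all lapatinib libraries (9.52%, against 3.87% of all genes) and 0 above (against 3.45%), with a median difference of -0.11, or -0.06 without lapatinib II. With lapatinib II left out, the 95% confidence intervals of SPRY4 (-0.34 to 0.12), DUSP4 (-0.28 to 0.11), ETV4 (-0.18 to 0.26) and ETV5 (-0.24 to 0.12) reached no further than -0.34 and 0.26. Other members differed more, on both sides. The lower ones included PHLDA2 with -0.42, EPHA4 with -0.39 and DUSP7 with -0.30 (unadjusted p = 0.0344). The higher ones included ETV1 with 0.28, DUSP5 with 0.255 (limma unadjusted p = 0.0265) and LIF with 0.23. Of the 21 differences, 14 were negative and 7 positive, and 3 of the 21 lay below DMSO (14.3%, against 8.76% of all genes) and 1 above (4.76%, against 9.12%).

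Among immediate early genes, which ERK and calcium signals induce within minutes, few members separated the groups, on both sides. FOS and EGR1, the best known members, stayed at or under 1.38 in every library. MYC had values of 6.30, 5.58 and 6.50 in lapatinib I, II and III, against 6.44, 6.37 and 6.47 in DMSO I, II and III. Its difference of -0.30 ± 0.24 was -0.03 ± 0.10 without lapatinib II. FOSL1, an AP-1 subunit whose level follows sustained ERK activity, differed by -0.15 ± 0.16 and JUN by -0.04, or -0.40 without lapatinib II. The orphan nuclear receptor gene NR4A2 was the member with the clearest separation. Its log2 values were 2.69, 2.46 and 2.47 in lapatinib I, II and III, against 1.62, 1.52 and 1.65 in DMSO I, II and III. Every lapatinib value lay well above every DMSO value. The difference was 0.94 ± 0.21 (unadjusted p = 0.00284, limma adjusted p = 0.957), and 0.96 ± 0.19 without lapatinib II (adjusted p = 0.477), but it was -0.003 with the deposited values, where all genes had a median of -0.43, and 0.48 with median centring. The related genes NR4A1 and NR4A3 differed by 0.30 and 0.23. In the list of 36 genes, 33 were tested, 0 passed, 2 lay above DMSO in all lapatinib libraries (NR4A2 and NR4A3, 6.06%) and 1 below (ZFP36, 3.03%), near the shares of all genes. Without lapatinib II, 5 lay above DMSO and 5 below (15.2% each, against 9.12% and 8.76% of all genes), and 23 of the 33 differences were negative, with a median of -0.05.

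**Figure D2:**
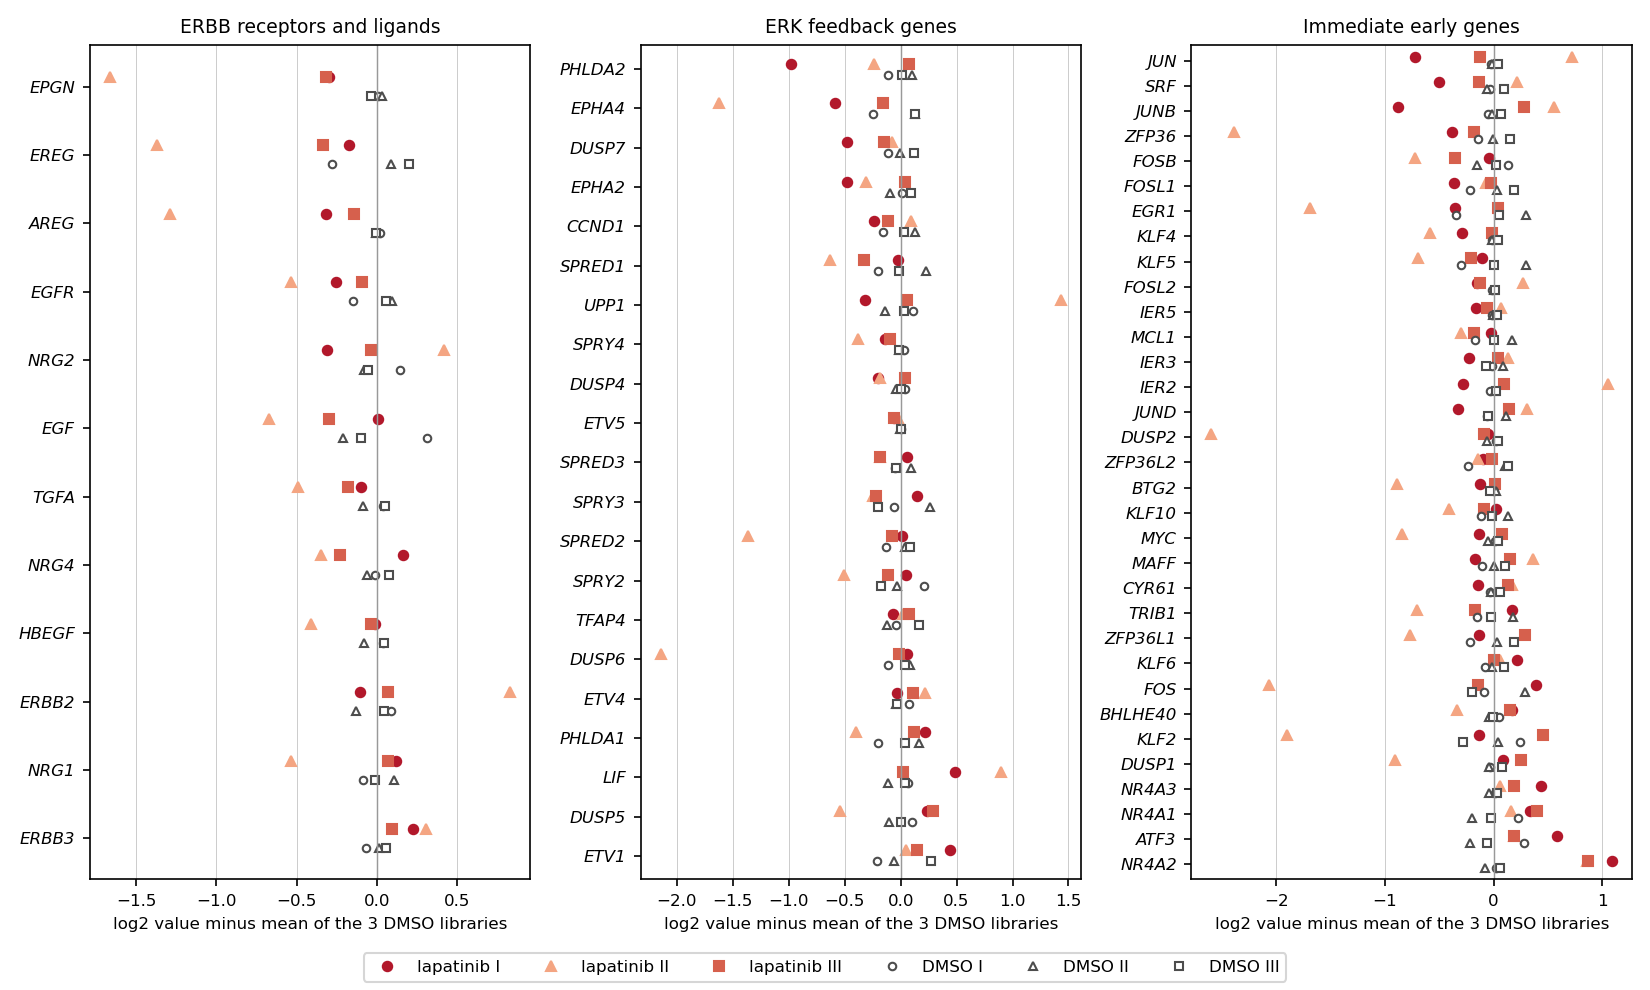
Log2 value of each library minus the mean of the 3 DMSO libraries (x axis) for the tested ERBB receptors and ligands, ERK feedback genes and immediate early genes (rows, sorted by the difference without lapatinib II). Filled symbols are lapatinib I to III and open symbols DMSO I to III. Lapatinib II is the distant point in DUSP6 (1.90, against 4.10 and 4.04 in lapatinib I and III) and several other rows, and NR4A2 is the row with all 3 lapatinib libraries far to the right.

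Genes that FOXO factors and loss of PI3K signalling induce gave a similar mixture. GABARAPL1, an autophagy gene and FOXO target, had values of 7.15, 6.93 and 7.01 in lapatinib I, II and III, against 6.79, 6.66 and 6.48 in DMSO I, II and III, and the groups did not overlap (difference 0.39 ± 0.14, unadjusted p = 0.0246). INSR, the insulin receptor gene, differed by 0.27 with the same order of libraries and TRIB2 by 0.36 at levels under 1. PDK4, a brake on pyruvate oxidation, had values of 1.86, 0.47 and 1.36 in lapatinib I, II and III, against 0.70, 0.88 and 0.99 in DMSO I, II and III, so that lapatinib II went the other way. Of 30 tested members of the list of 32, 0 passed, 3 lay above DMSO in all lapatinib libraries (10%, against 3.45% of all genes) and 0 below (against 3.87%). Without lapatinib II the counts were 8 above (26.7%, against 9.12% of all genes) and 4 below (13.3%, against 8.76%), and the median difference was 0.03.

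In the unfolded protein response list, 5 of 20 genes lay above DMSO in all lapatinib libraries, HERPUD1 among them, and none passed the test. This response is set off when misfolded proteins collect in the endoplasmic reticulum, and the sensors ATF6, IRE1 (the product of ERN1) and PERK then raise chaperones, components of protein degradation and the transcription factors XBP1 and DDIT3. HERPUD1, which encodes a membrane protein that assists the degradation of such proteins, lies at chromosome 16, 56932048 to 56944863 (GRCh38, as given in the files). Its log2 values were 6.43, 5.80 and 6.22 in lapatinib I, II and III, against 5.60, 5.42 and 5.42 in DMSO I, II and III. All 3 lapatinib values lay above DMSO, lapatinib II least. The difference was 0.67 ± 0.19 (95% confidence interval 0.23 to 1.10; unadjusted p = 0.00815), and without lapatinib II it was 0.82 ± 0.11, a 1.77-fold higher level, at the lowest adjusted p of that comparison, 0.219.

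Most other members of the response had positive differences without lapatinib II. DNAJB9, a cochaperone of the endoplasmic reticulum, had values of 4.98, 4.03 and 4.52 in lapatinib I, II and III, against 3.50, 4.12 and 4.02 in DMSO I, II and III, where lapatinib II lay inside the DMSO range. MANF, a secreted protein of the stressed endoplasmic reticulum, had values of 7.08, 6.75 and 6.92 in lapatinib I, II and III, against 6.73, 6.58 and 6.49 in DMSO I, II and III, a narrow separation with a difference of 0.32 ± 0.14. HSPA5, which encodes the chief chaperone of the compartment, differed by 0.09 ± 0.15, or 0.20 ± 0.08 without lapatinib II, and XBP1 by 0.23 ± 0.16. ERN1 differed by -0.35, or -0.10 without lapatinib II, and ATF6, SEC61B and SYVN1 by -0.20, -0.41 and -0.08, or 0.01, 0.11 and 0.16 without it. DDIT3, which encodes the stress-induced factor CHOP and stands in the list of ATF4 targets, had values of 3.57, 3.57 and 3.23 in lapatinib I, II and III, against 2.75, 2.75 and 2.63 in DMSO I, II and III. Its difference was 0.75 ± 0.19 (unadjusted p = 0.00529), and 0.01 with the deposited values or 0.49 with median centring. All 20 members of the response list were tested. No member passed, 5 lay above DMSO in all lapatinib libraries (HERPUD1, MANF, SDF2L1, XBP1 and HYOU1; 25%, against 3.45% of all genes) and 0 below. Without lapatinib II, 8 lay above (40%, against 9.12%) and 0 below, and 18 of 20 differences were positive, against 8223 of 15981 among all genes. The median difference was 0.15, or 0.16 without lapatinib II. With the deposited values it was -0.01 against -0.43 for all genes, and with median centring 0.47 against 0.06. The heat shock chaperones, with 0 members separated in all lapatinib libraries, had -0.09 and 0.39 on these scales. A median above that of all genes was therefore not particular to the response there. The 38 genes of the ATF4 amino acid response had 2 above and 1 below in all lapatinib libraries (against 3.45% and 3.87% of all genes) and a median difference of -0.01.

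Promoters of the response carry a known element, CCAAT and CCACG separated by 9 bases, which binds NF-Y and ATF6. In RefSeq promoters (GRCh38.p14, 250 bases before to 50 after each start, both strands searched), CCAAT, any 9 bases and CCACG occurred in 27 of 35116 promoters (0.0769%). The 20 response genes had 23 promoters, and 6 of these (26.1%) held it, those of CALR, CRELD2, HSP90B1, HSPA5, PDIA6 and XBP1. A shorter form was CCAAT, any 9 bases and CCA, which every full match also holds. It occurred in 1.12% of all promoters and in 8 of the 23 (34.8%), those of HERPUD1 and SEL1L being the further ones. The stretches around the match are shown for HERPUD1 and DDIT3, which separated the groups (DDIT3 is not on the response list), and for HSPA5 and XBP1, which hold the full element, with the fixed letters of the match in capitals. The genomic positions are chr16:56932039-56932095 for HERPUD1 (plus strand), chr12:57520578-57520634 for DDIT3, chr9:125241371-125241429 for HSPA5 and chr22:28800583-28800641 for XBP1 (all 3 on the minus strand).
HERPUD1: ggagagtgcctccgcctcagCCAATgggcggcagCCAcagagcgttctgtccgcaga
DDIT3: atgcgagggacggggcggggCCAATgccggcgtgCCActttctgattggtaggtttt
HSPA5: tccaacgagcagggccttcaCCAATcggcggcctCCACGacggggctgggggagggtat
XBP1: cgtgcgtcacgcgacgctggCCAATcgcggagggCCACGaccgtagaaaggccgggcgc
A match is a description of letters and not a bound site.

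Sterol synthesis genes, most of them targets of the SREBP2 transcription factor, had few members above DMSO in all lapatinib libraries and more once lapatinib II was left out. INSIG1, which holds the SREBP escort protein in the endoplasmic reticulum and is itself an SREBP target, had values of 5.74, 5.12 and 5.53 in lapatinib I, II and III, against 5.01, 5.09 and 5.04 in DMSO I, II and III. All 3 lapatinib values were higher, lapatinib II by very little. The difference was 0.42 ± 0.19 (unadjusted p = 0.0565), and 0.57 ± 0.11 without lapatinib II (adjusted p = 0.389). MSMO1, a sterol demethylase subunit, had values of 7.10, 5.78 and 6.83 in lapatinib I, II and III, against 6.29, 6.59 and 6.48 in DMSO I, II and III. Lapatinib I and III lay above every DMSO value and lapatinib II below, so the difference was 0.12 with 6 libraries and 0.51 without lapatinib II. The fatty acid synthase gene FASN had values of 7.73, 9.72 and 8.63 in lapatinib I, II and III, against 8.45, 8.58 and 8.72 in DMSO I, II and III, and the mevalonate enzyme gene MVD was likewise highest in lapatinib II (6.99) and lowest in lapatinib I (4.46). In the list of 31 genes, 30 were tested, 0 passed, 2 lay above DMSO in all lapatinib libraries (INSIG1 and NSDHL; 6.67%, against 3.45% of all genes) and 0 below. Without lapatinib II, 10 lay above (33.3%, against 9.12% of all genes) and 0 below, and the median difference was 0.12. The median with 6 libraries was 0.08, and -0.09 with the deposited values, against -0.43 for all genes. Heat shock chaperones also had -0.09 with the deposited values, so that contrast was not particular to the sterol list.

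In the list for the export of cholesterol and LXR nuclear receptors, ABCG1 and MYLIP lay below DMSO and other members lay on either side. ABCG1, a sterol transporter, had values of 5.86, 5.37 and 5.79 in lapatinib I, II and III, against 6.26, 6.15 and 6.16 in DMSO I, II and III. Every lapatinib value was lower and the difference was -0.51 ± 0.17 (unadjusted p = 0.0164), or -0.35 ± 0.09 without lapatinib II. ABCA1, the transporter that loads cholesterol onto apolipoprotein A-I, had values of 3.69, 4.35 and 3.63 in lapatinib I, II and III, against 4.16, 4.49 and 4.46 in DMSO I, II and III. Lapatinib II lay within the DMSO range, and the difference was -0.48 ± 0.24, or -0.65 ± 0.14 without it. MYLIP, a ubiquitin ligase gene induced by LXR, was lower in all 3 lapatinib libraries by -0.53, or -0.31 without lapatinib II. Of the 8 list members, all tested, 0 passed and 2 lay below DMSO in all lapatinib libraries (25%, against 3.87% of all genes). The receptor genes NR1H2 and NR1H3 differed by 0.27 and 0.23, neither above 0 without lapatinib II, and the transporter gene ABCG4 by 0.30, or 0.52 without lapatinib II, and the median of the list was -0.43 with 6 libraries and -0.07 without lapatinib II.

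The 13 mRNAs encoded in mitochondrial DNA depended on a single library. MT-ND1, a subunit of respiratory complex I, had values of 9.55, 6.05 and 9.59 in lapatinib I, II and III, against 9.05, 9.22 and 9.09 in DMSO I, II and III. MT-ATP8, a subunit of the ATP synthase, had values of 7.95, 2.31 and 8.05 in lapatinib I, II and III, against 7.76, 7.59 and 7.64 in DMSO I, II and III. Lapatinib II was lower than every other library in all 13. Lapatinib I and III were higher than every DMSO library in all 13 (100%, against 9.12% of all genes without lapatinib II). How many of all genes were lowest in lapatinib II was not counted. The median difference was -0.77 with 6 libraries and 0.43 without lapatinib II, where the 13 differences ran from 0.28 to 0.45, all positive. No member passed in either fit.

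**Figure D3:**
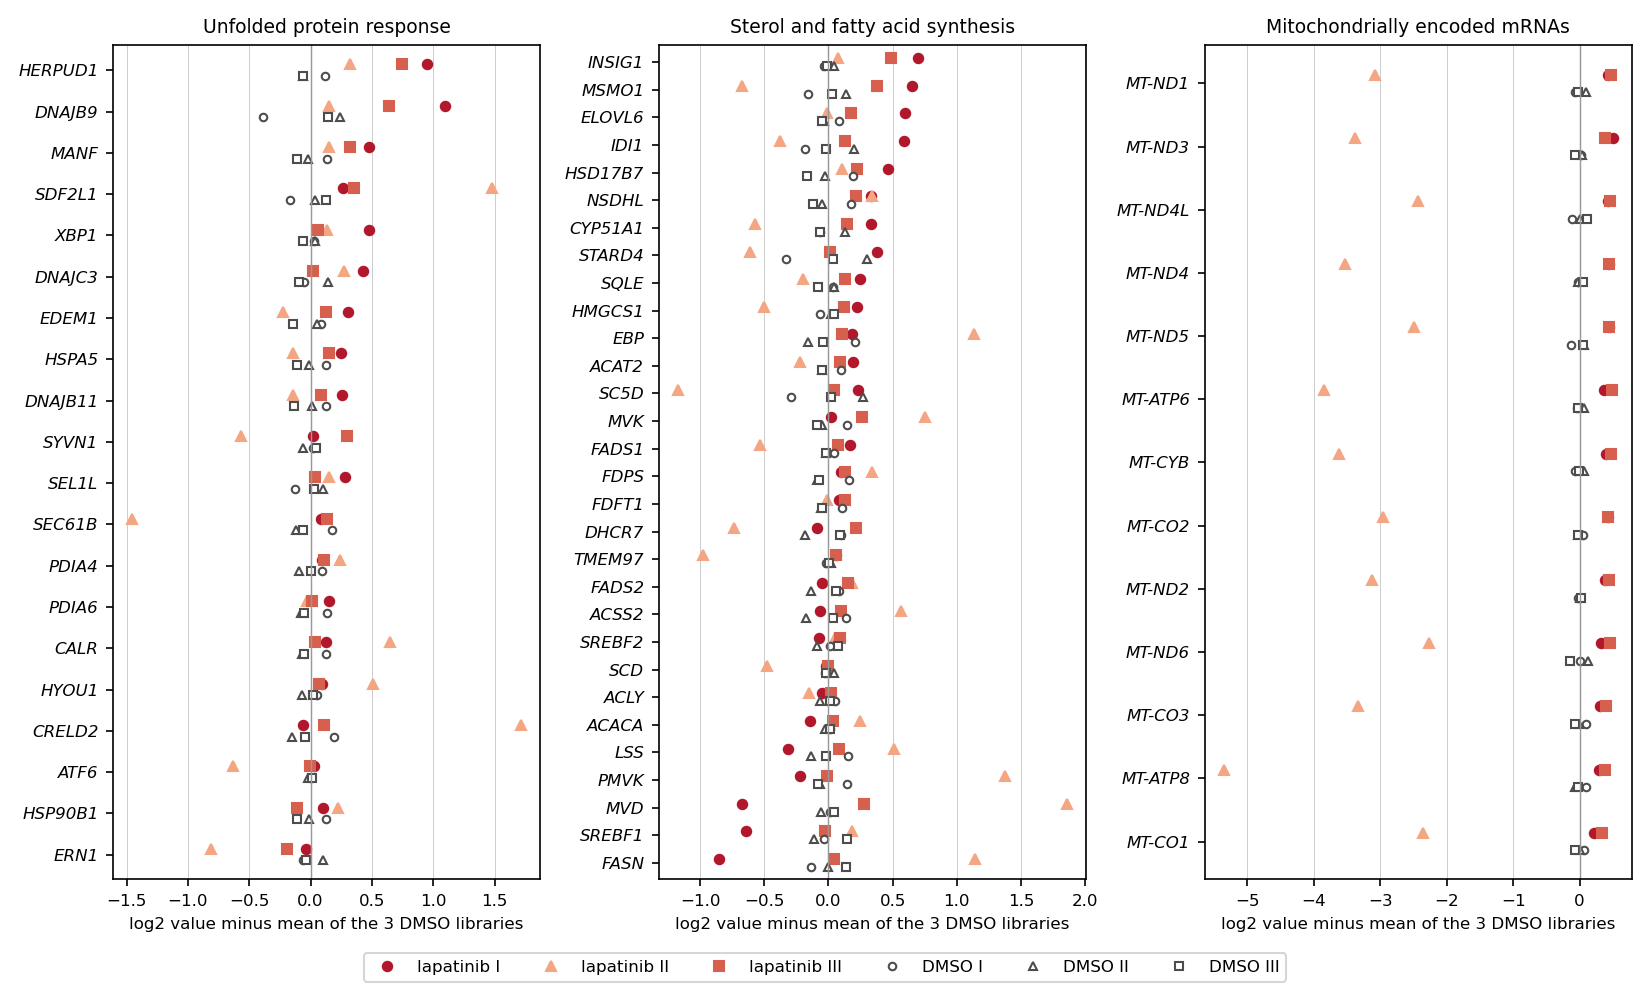
Log2 value of each library minus the mean of the 3 DMSO libraries (x axis) for the unfolded protein response, sterol and fatty acid synthesis and mitochondrially encoded mRNAs (rows, sorted by the difference without lapatinib II). Filled symbols are lapatinib I to III and open symbols DMSO I to III. HERPUD1 heads the left panel with all 3 lapatinib libraries on the right, and lapatinib II lies apart from lapatinib I and III in all 13 rows of the mitochondrial panel.

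Of the targets of the aryl hydrocarbon receptor, a sensor of planar aromatic compounds, 6 of 10 were tested and 2 lay below DMSO in all lapatinib libraries (33.3%, against 3.87% of all genes). These were CYP1B1, with values of 8.71, 8.23 and 8.67 in lapatinib I, II and III, against 8.83, 9.34 and 9.24 in DMSO I, II and III (difference -0.60 ± 0.19, unadjusted p = 0.0165), and CYP1A1, with a difference of -0.61 at levels at or under 2.14. Nucleolar and ribosome synthesis genes had 4 of 34 members below DMSO in all lapatinib libraries (11.8%, against 3.87% of all genes) and 11 of 34 without lapatinib II (32.4%, against 8.76% of all genes), with 0 above in both cases and median differences of -0.02 and -0.09. Hypoxia and glycolysis genes had 3 of 32 below (9.38%, against 3.87%), and 8 of 32 (25%, against 8.76%) without lapatinib II, among them ANKRD37 and ALDOC at low levels. With the deposited values, the nucleolar and the hypoxia list had medians of -0.17 and -0.24, against -0.43 for all genes. Median centring gave 0.315 and 0.25, against 0.06. On those scales neither list median lay below that of all genes. Among 38 genes of G2 and mitosis, 2 lay below in all lapatinib libraries (5.26%, against 3.87%) and 0 above, and among 45 G1 to S genes 2 lay above (4.44%, against 3.45%) and 0 below, both near the shares of all genes. Without lapatinib II, 5 of the 38 lay below (13.2%, against 8.76%) and 0 above. Of the 45, 7 then lay above (15.6%, against 9.12%) and 1 below (2.22%, against 8.76%). CCND1, the cyclin that growth factors induce, differed by -0.09 ± 0.14 (95% confidence interval -0.42 to 0.24), CDKN1A by -0.11 ± 0.14 and MCM2 by -0.03 ± 0.16. CDC7 and CDK9, the targets of PHA-767491, differed by 0.08 ± 0.22 and -0.11 ± 0.15. Without lapatinib II, CDC7 differed by 0.29 ± 0.11 (95% confidence interval 0.06 to 0.53), with both remaining lapatinib libraries above all DMSO libraries, and its adjusted p was 0.902. POLR2A, the large subunit of RNA polymerase II, was lower in all 3 lapatinib libraries by -0.28 ± 0.12, although its difference was 0.08 with median centring. Heat shock chaperones (21 tested) and NRF2 targets (24 tested) had 0 members separated in either direction.

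By a rule of order and level, the 15 genes with the smallest unadjusted p were named in each direction among those whose libraries did not overlap and whose mean was at or above that of the median gene. None of the 30 passed the test, and the conditions were met by 176 genes in the upward and 307 in the downward direction. SEMA4D, a membrane semaphorin, led the first set with values of 4.71, 4.54 and 4.59 in lapatinib I, II and III, against 3.96, 4.01 and 4.18 in DMSO I, II and III (difference 0.57 ± 0.15, unadjusted p = 0.007). EFNA1, an ephrin ligand, had values of 7.84, 7.92 and 7.83 in lapatinib I, II and III, against 7.58, 7.36 and 7.36 in DMSO I, II and III. The long non-coding RNA NEAT1, the scaffold of paraspeckles, had values of 6.53, 6.63 and 6.59 in lapatinib I, II and III, against 6.04, 6.31 and 6.06 in DMSO I, II and III. In these 3 genes lapatinib II lay beside lapatinib I and III. DHRS3, a retinaldehyde reductase, had values of 4.43, 5.61 and 4.64 in lapatinib I, II and III, against 4.03, 3.96 and 3.88 in DMSO I, II and III, where lapatinib II made up most of the difference of 0.94 (0.53 without it). The others were HERPUD1, CDK2AP2, GABARAPL1, STX3, MRPL23, CCDC82, CLK2, KIAA0226, RP5-857K21.6, COMMD1 and PDP2, with differences from 0.33 for CLK2 to 1.26 for MRPL23, which was 0.68 without lapatinib II.

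In the downward direction, FAM83D, a mitotic spindle protein, had values of 6.52, 6.14 and 6.74 in lapatinib I, II and III, against 7.01, 7.02 and 6.96 in DMSO I, II and III (difference -0.53 ± 0.17, unadjusted p = 0.0161). The mitotic kinase gene PLK1 had values of 7.90, 7.60 and 8.01 in lapatinib I, II and III, against 8.19, 8.24 and 8.21 in DMSO I, II and III. Its difference was -0.38 ± 0.14, and -0.50 with the deposited values, where all genes had a median of -0.43. MAT2A, which makes the methyl donor S-adenosylmethionine, had values of 7.93, 7.17 and 7.88 in lapatinib I, II and III, against 8.21, 8.19 and 8.25 in DMSO I, II and III. In all 3 genes lapatinib II was the lowest library. The transcription factor gene GATA2 was lowest in lapatinib I instead, with 5.86, 6.10 and 6.16 in lapatinib I, II and III, against 6.61, 6.41 and 6.36 in DMSO I, II and III. The others were ABCG1, CYP1B1, MED13L, TRAM2, BIRC6, FZD8, UBAP2, SIRT1, NR2F2, PLAGL2 and HIST1H2BK, with differences from -0.62 for NR2F2, which was -0.34 without lapatinib II, to -0.37 for FZD8. All 15 genes of each set kept their sign without lapatinib II, which the condition of no overlap had all but fixed in advance. The order of the libraries chose these genes, so it is no support for them.

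**Figure D4:**
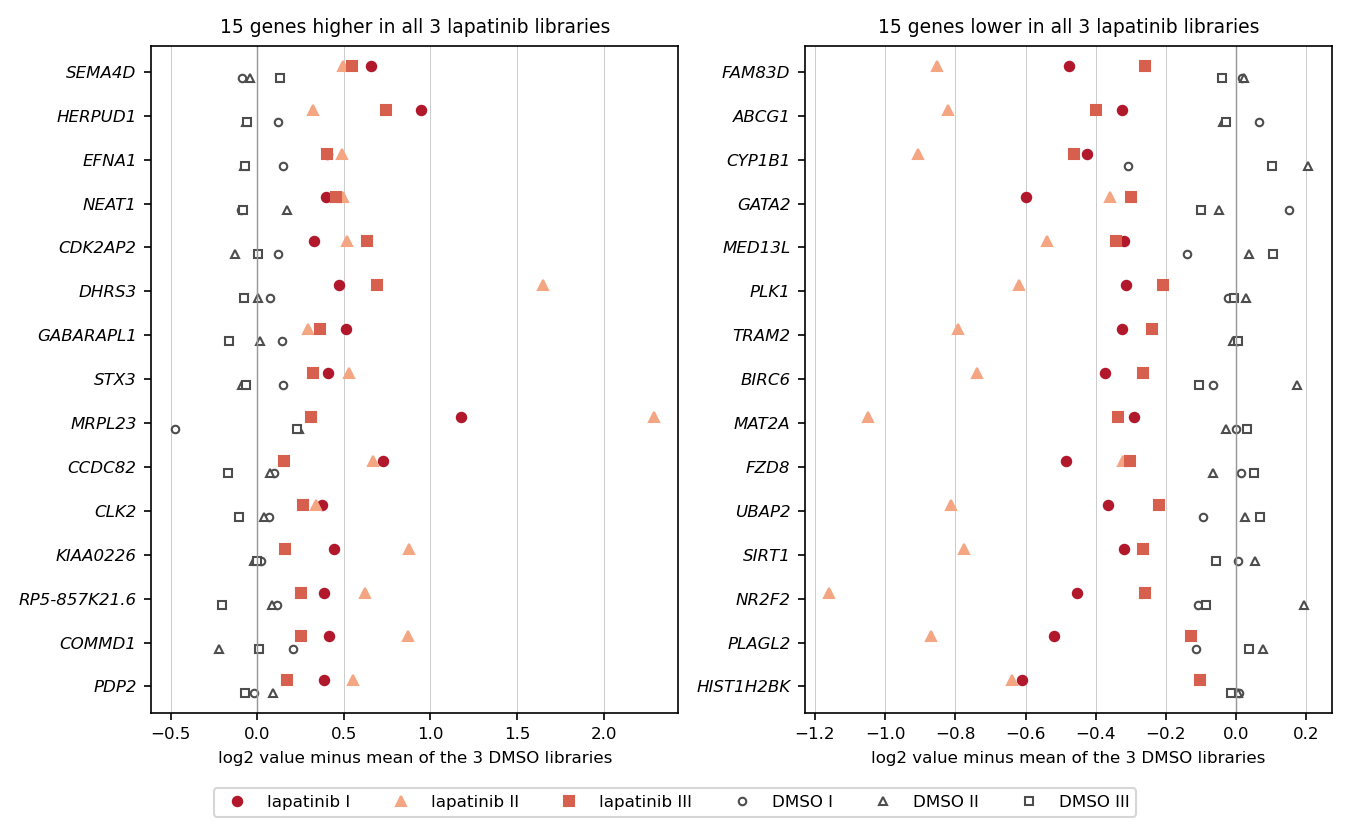
Log2 value of each library minus the mean of the 3 DMSO libraries (x axis) for the 15 genes named in each direction (rows, smallest unadjusted p at the top). Filled symbols are lapatinib I to III and open symbols DMSO I to III. In the left panel lapatinib II lies far to the right in MRPL23 and DHRS3, and in the right panel lapatinib II is the lowest symbol in most rows, as in MAT2A (7.17, against 7.93 and 7.88 in lapatinib I and III).

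The difference between co-treatment and PHA-767491 alone gave a second reading in libraries that the first did not use. The reading was not fully separate, as all 12 SKBR7 libraries were normalised and fitted together. Its SE and adjusted p therefore also carry the spread of the lapatinib and DMSO libraries, lapatinib II among them. Among 14170 genes with values in all 12 SKBR7 libraries, 762 (5.38%) were higher and 1299 (9.17%) lower in co-treatment than in PHA-767491 alone by limma. Of the 15 genes named as higher, 10 had the same sign there, 1 passed in that direction (DHRS3) and 0 in the other. Of the 15 named as lower, 11 had the same sign, 6 passed in that direction (CYP1B1, TRAM2, BIRC6, MAT2A, UBAP2 and NR2F2) and 1 in the other (PLAGL2). Without co-treatment I, the library of that contrast that listed fewest genes (16232), 1 of the first set and 5 of the second passed in the same direction and 0 in the other, with CYP1B1 and NR2F2 no longer passing and FZD8 passing. DHRS3 rose by 1.21 ± 0.25 (adjusted p = 0.00746) in co-treatment. TRAM2, which encodes a protein of the translocon, fell to 6.41, 6.41 and 6.57 in co-treatment I, II and III, against 7.12, 7.10 and 7.06 in PHA-767491 I, II and III. MAT2A fell to 6.31, 6.67 and 6.50 in co-treatment I, II and III, against 8.06, 8.02 and 8.05 in PHA-767491 I, II and III.

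INSIG1 and EGFR differed in this second reading, and HERPUD1 did not pass. INSIG1 rose to 6.31, 6.37 and 6.45 in co-treatment I, II and III, against 5.32, 5.34 and 5.48 in PHA-767491 I, II and III (difference 0.99 ± 0.15, adjusted p = 0.00116). MSMO1 rose by 0.91 ± 0.26 (adjusted p = 0.0319), and did not pass without co-treatment I (adjusted p = 0.1). Of 30 sterol and fatty acid synthesis genes, 3 were higher and 0 lower, against 5.38% and 9.17% of all genes (2 and 0 without co-treatment I), with a median difference of 0.18 against 0.03 for all genes. ABCA1 fell by 0.94 ± 0.20 (adjusted p = 0.00903), while ABCG1 differed by 0.05. HERPUD1 had 5.07, 5.13 and 5.19 in co-treatment I, II and III, against 5.09, 5.01 and 5.04 in PHA-767491 I, II and III, a difference of 0.08 ± 0.15. The unfolded protein response list had a median difference of 0.20, with 1 of 20 members (PDIA4) higher and 0 lower, near the 5.38% of all genes that were higher, and that call did not hold without co-treatment I. EGFR fell to 7.23, 7.12 and 7.19 in co-treatment I, II and III, against 8.71, 8.77 and 8.60 in PHA-767491 I, II and III (difference -1.51 ± 0.12, adjusted p = 3.17e-05). Its ligand gene EPGN fell by 1.56 ± 0.36 (adjusted p = 0.0132, or 0.0575 without co-treatment I). NR4A2 went against its difference with lapatinib alone, at -1.91, -0.05 and 0.36 in co-treatment I, II and III, against 1.22, 1.28 and 1.18 in PHA-767491 I, II and III. The interaction test, which compares the 2 differences, called 163 genes (1.15%) higher and 319 genes (2.25%) lower on top of PHA-767491 among the 14170.

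**Figure D5:**
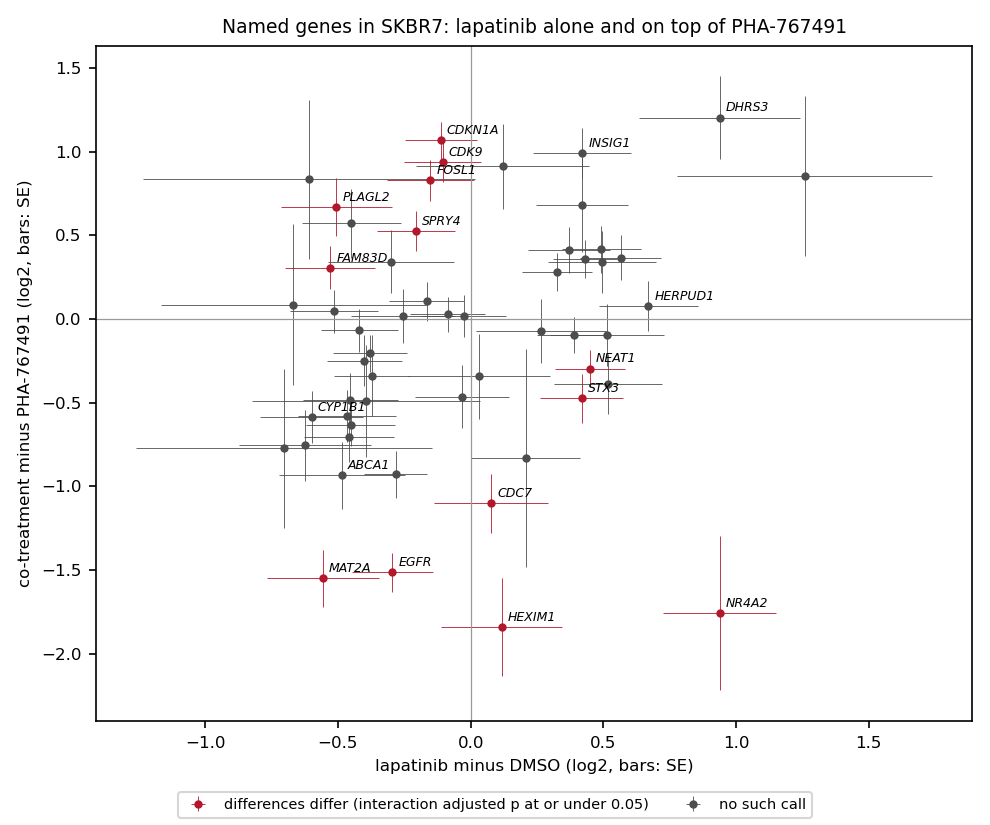
Difference between lapatinib and DMSO (x axis, log2) against the difference between co-treatment and PHA-767491 (y axis, log2) for 55 named genes in SKBR7 cells, with bars of 1 SE. Red points are the 13 genes whose differences were themselves different by the interaction test, among them EGFR (-0.30 on the x axis and -1.51 on the y axis) and NR4A2 (0.94 and -1.76), and INSIG1 and DHRS3 lie at the upper right.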

How the data were processed

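RNA was sequenced in 3 SKBR7 libraries per group. The authors counted read pairs per gene with featureCounts 1.4.6 (GRCh38), scaled the counts with edgeR's TMM method and quantile normalised them. The aligner is named differently in the labels and in the methods. The deposited log2 values are 1 column per library, blank where a gene is not listed. A second deposited table held the authors' group means and differences and was not used. After 36 repeated gene identifiers were left out, genes with a value in all 6 libraries were quantile normalised anew and tested with limma 3.58.1 (R 4.3.3; moderated test with a variance trend, two-sided, Benjamini-Hochberg adjustment over all tested genes). The 12 SKBR7 libraries were fitted likewise for co-treatment minus PHA-767491 and for the interaction. The 31 gene lists were described by counts and medians. Members, lists and tests were chosen with earlier results of these data known. Genes were named by the rule of order and level in the report (15 per direction), as up to 3 members of each list with the largest difference at or above the median gene, or from a fixed set of pathway genes, and any other gene named was chosen after its values were seen. A few genes of the sterol list are not reported here. The fit was tested on simulated data. All simulated libraries had the spread of the DMSO libraries, so that test does not cover the wider spread of the lapatinib libraries. A rule for genes of the Hs578T line (at log2 6 or more there and not listed under PHA-767491 in SKBR7) found 0 genes and was replaced as described. Figures were drawn with Python 3.11.15 and matplotlib 3.10.9.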

Additional observations from a re-analysis of the deposited data

Results flagged for a closer look

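Of 112 genes named here that could be tested in all 12 SKBR7 libraries, 14 had a difference between co-treatment and PHA-767491 that was unlike their difference between lapatinib and DMSO, by the interaction contrast of limma over 14170 genes, where 163 genes (1.15%) were higher and 319 (2.25%) lower. Many of the 112 were chosen after their values were seen, so their share is not to be read against that of all genes. Genes that the list rule drew but the text does not name are not among the 112, and some of them had such a difference as well. The values below are the first difference minus the second in log2 units. EGFR had -1.22 ± 0.17 (SE; adjusted p = 0.00675), with co-treatment libraries lower than PHA-767491 in 3 of 3 and overlapping lapatinib and DMSO libraries. NR4A2 had -2.71 ± 0.65 (adjusted p = 0.043), HEXIM1 -1.96 ± 0.41, CDC7 -1.18 ± 0.25, MAT2A -0.99 ± 0.24, STX3 -0.92 ± 0.21 and NEAT1 -0.75 ± 0.16, all lower on top of PHA-767491. PLAGL2 had 1.20 ± 0.25, CDKN1A 1.18 ± 0.15, CDK9 1.05 ± 0.17, FOSL1 0.98 ± 0.18, EPHA2 0.93 ± 0.17, FAM83D 0.84 ± 0.18 and SPRY4 0.74 ± 0.17, all higher on top of PHA-767491. Without co-treatment I, 9 of the 14 still passed, and CDC7, FAM83D, MAT2A, SPRY4 and STX3 did not.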

How the results depend on the processing

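Precision was one limit: 3 libraries a group, one of them apart from the rest, and no read totals. Over 16 other settings the count of genes higher and lower stayed at 0 in 15. The exception was array quality weights, which called 454 higher and 544 lower. These weights were 36.0 for lapatinib III, 0.183 for lapatinib I and 0.0591 for lapatinib II, and their estimation did not converge, so the lapatinib group rested on 1 library there. The counts without each library in turn were 0 to 0, with 72 to 633 genes at an unadjusted p under 0.05. With the replicate number as a block (replicate block, paired fit) 0 genes were called and 136 had an unadjusted p under 0.05. The labels do not say that a number marks a shared culture, and same-numbered deviations correlated by only 0.019, 0.035 and 0.086. With the deposited values the median difference over all genes was -0.43, 16 genes lay above DMSO in all lapatinib libraries and 1292 below. Of 1780 differences of the 113 named genes over these settings, 149 took the other sign, in 60 genes. Leaving out lapatinib II and DMSO II together, a setting chosen after seeing the data, gave 0 calls and 382 genes at an unadjusted p under 0.05. For lapatinib added to PHA-767491, likewise without co-treatment I, 415 genes were higher and 895 lower, in place of 762 and 1299.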

Other observations

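Several further lists were measured. Lysosome genes had 1 of 42 tested members above DMSO in all lapatinib libraries and 2 below (3.45% and 3.87% of all genes), with a median difference of -0.05. In co-treatment against PHA-767491, 5 of the 42 rose and 0 fell, with a median of 0.26, against 5.38% and 9.17% of all genes (3 and 0 without co-treatment I). p53 target genes had 1 of 20 above and 0 below under lapatinib alone, with a median of -0.01. In co-treatment against PHA-767491, 10 of the 20 rose and 0 fell, with a median of 0.72, against 5.38% and 9.17% of all genes (9 and 0 without co-treatment I), among them CDKN1A, an inhibitor of cyclin-dependent kinases. EGFR adaptors and negative regulators had 0 of 19 members separated under lapatinib alone, and 1 rose and 4 fell in co-treatment, against 5.38% and 9.17% of all genes (0 and 3 without co-treatment I).

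TGF-beta and BMP genes had 3 of 22 below DMSO in all lapatinib libraries (13.6%) and 0 above, both with and without lapatinib II, where 3.87% and 8.76% of all genes lay below. For the counts that follow, 3.45% of all genes lay above and 3.87% below. Interferon-stimulated genes had 2 of 19 above and 0 below, YAP and TEAD targets 1 of 26 above and 2 below, BCL2 family genes 0 of 14 above and 1 below, and cytokine and NF-kB genes 0 of 24 above and 1 below. Receptor tyrosine kinases outside the ERBB family had 1 of 20 above and 0 below, the elongation and CDC7 or CDK9 list 0 of 26 above and 3 below, and the 3 tested drug transporter and metabolism genes 0 in either direction. No member of any of these lists passed limma's test under lapatinib alone.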
